A study of Homo sapiens with 4 samples.

Results

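The genes described here encode the enzymes and carriers that make microRNAs and the Argonaute proteins that use them. They were DROSHA, DGCR8, XPO5, DICER1, TARBP2, PRKRA, AGO1, AGO2, AGO3 and AGO4, and their members on the array were all probe sets whose only annotated gene symbol was 1 of these 10. This gave 27 probe sets of 9 genes, among 41091 probe sets with 1 gene symbol and 54613 probe sets in all. DGCR8 had none, because all of its probe sets were annotated jointly with a microRNA gene, and those are given separately. The study knocked down PIR, which encodes the nuclear protein pirin, in U937, an established human line of monocyte-like lymphoma cells. The tested cells were U937 carrying shPIR#7, a short hairpin cloned in the pSICO-R lentiviral vector, and the control cells were U937 infected with pSICO-R without a hairpin. For each condition 1 pool was made from 3 RNA extractions in equal amounts and run on 2 Affymetrix HG-U133 Plus 2.0 arrays. The knock-down therefore rests on 1 hairpin and 1 pool, which counts as 1 sample however many arrays it was run on, and no p-value can be given for the condition.

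MicroRNAs are cut out of long primary transcripts in the nucleus by the Microprocessor, in which the RNase DROSHA works with the RNA-binding protein DGCR8. Exportin-5, the product of XPO5, carries the resulting hairpin to the cytoplasm, where DICER1 and its partners TARBP2 and PRKRA remove the loop. An Argonaute protein takes up a strand of the duplex and uses it to silence matching mRNAs. Short hairpins made from a vector join this pathway at the export step, so the knock-down cells carried a substrate of exportin-5 and DICER1 that the empty-vector cells did not. The forward DNA oligonucleotide of that hairpin is shown because the RNA made from it is such a substrate. The 20 bases of each arm of its longest self-complementary stretch are in capitals. The bases between the arms and at the ends are in lower case.
shPIR#7: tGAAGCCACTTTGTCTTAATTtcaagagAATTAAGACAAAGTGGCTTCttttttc

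The signals are intensities on a linear scale, and as deposited they had a common trimmed mean on every array. Differences are given as knock-down minus empty vector on the log2(signal + 18) scale, which understates the change of dim probe sets. Each array's 60th percentile of signal, 116.4 to 125.5, served as its brightness limit, and a probe set with 1 pool at or above the limit on both arrays is called measured. A probe set is called higher or lower where the log2 difference was 1 or more (2-fold), each of the 4 pairs of arrays differed by 0.5 or more the same way, and the brighter pool was at or above the limit on both arrays. Errors are SDs between the 2 arrays of a pool. PIR itself, on its only probe set, had signals of 83.4 and 91.5 on the knock-down arrays, against 1813 and 1882 on the empty-vector arrays. The ratio of 3′ to 5′ control signals was 0.98 and 1.00 for GAPDH on the knock-down arrays, against 0.959 and 1.02 on the empty-vector arrays, and 1.17 to 1.18 for ACTB on all 4, so the pools overlapped in this sign of RNA quality. Of the myelomonocytic markers, 6 of 8 on the array were measured, with a median difference of 0.47, against 0.05 over all measured genes. Of these 6, 5 were positive and none was called. For 4 of the 6 the knock-down was higher without overlap of the pools, which also held for 40.9% of all measured genes. CD4 had the widest difference, 0.84, before CSF1R at 0.69, CSF3R at 0.54, ELANE at 0.41, LYZ at 0.01 and SPI1 at -0.13. Of the markers of lymphoid and other lineages, 3 of 8 were measured. The B-cell marker CD79A had 295.1 and 305.7 on the knock-down arrays, against 288.9 and 369.3 on the empty-vector arrays, NCAM1 had a difference of 0.13 and COL1A1 of 0.36, while CD3E, CD3D and MS4A1 lay below the limit in both pools. The part of these markers in the results that follow was not tested.

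DICER1, the RNase III enzyme that cuts precursor hairpins into duplexes, was the only member with a called probe set. Its signal was less than 0.5 times as high in the knock-down cells on 2 of its 3 measured probe sets, and lower by less on the third. None of the 17 measured probe sets of the other 8 genes was called in either direction, and their differences ran from -0.68 to 0.64. Of the 20 measured probe sets of the 9 genes, 2 were thus called lower and none higher, while over all 18999 measured probe sets with 1 gene symbol 1.42% were called lower and 2.39% higher. The genes were chosen with earlier results of these data known, so these shares only describe them. In pooled RNA, fewer cells that express a gene and less RNA per cell cannot be told apart.

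DICER1 probe set 212888_at had signals of 821 and 859 on the knock-down arrays, against 2040.4 and 2140 on the empty-vector arrays. The pools were far apart, with a mean of 840 ± 26.9 for the knock-down and 2090.2 ± 70.4 for the empty vector (SD, n = 2 arrays each). The log2 difference was -1.30, a 2.46-fold lower signal, with array-by-array differences from -1.36 to -1.23. DICER1 probe set 213229_at, the brightest of the gene, had signals of 1384 and 1422 on the knock-down arrays, against 2812 and 2931 on the empty-vector arrays. Its log2 difference was -1.02, or 2.03-fold lower, with array-by-array differences from -1.07 to -0.97. This value lay close to the 2-fold limit and was -0.90 when each array was scaled to a common median, -0.997 with a pseudocount 4 times larger and -0.99 without empty-vector array 2, so that the call was lost under each of these. On this probe set DICER1 had the 116th lowest difference of 10288 measured genes, of which 1.1% were called lower on their brightest probe set. At the level of genes, DICER1 was the only called member of the 9. A scaling of the arrays to a common median raised the median difference of all genes by 0.12, and DICER1 213229_at moved by that much under it.

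The third measured DICER1 probe set, 206061_s_at, gave a smaller difference. Its signals were 538.5 and 578.9 on the knock-down arrays, against 833.6 and 750.4 on the empty-vector arrays, again without overlap. The log2 difference was -0.49, or 1.40-fold lower, and it stayed between -0.56 and -0.37 under the other settings. The spread of -1.30 to -0.49 among probe sets of the same gene was wider than the SDs between arrays, which were at most 0.10 on the log2 scale for these 3 probe sets, and where in the transcript each probe set lies was not analysed here. The remaining 3 DICER1 probe sets were dim in both pools and disagreed, with log2 differences of -0.98 for 216280_s_at, -0.39 for 216281_at and 0.53 for 216260_at. None of them reached a signal above 58 on any array, so they carry little weight. The 2 probe sets of DICER1-AS1, a non-coding gene next to DICER1, were also below the limit. One of these, 1557063_at, had signals of 12.3 and 39.7 on the knock-down arrays, against 78.5 and 50.8 on the empty-vector arrays. The other, 229227_at, had 11 and 65.4 on the knock-down arrays, against 28.4 and 77.4 on the empty-vector arrays, and its pools overlapped.

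**Figure D1:**
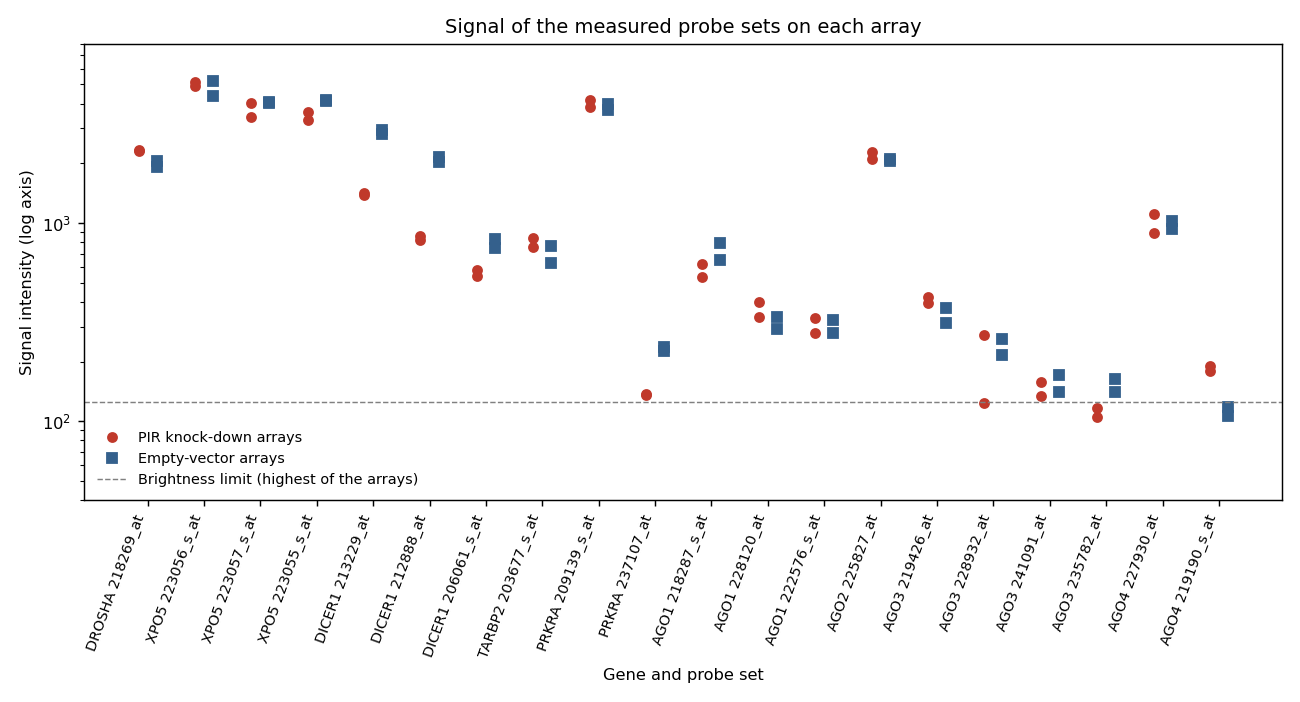
Signal intensity (log axis) of the 20 measured probe sets on each array, with the 2 knock-down arrays as circles to the left and the 2 empty-vector arrays as squares to the right; the dashed line is the highest brightness limit of the 4 arrays. The DICER1 probe sets 213229_at and 212888_at show the widest gaps, with 1384 and 1422 against 2812 and 2931, and 821 and 859 against 2040.4 and 2140.

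**Figure D2:**
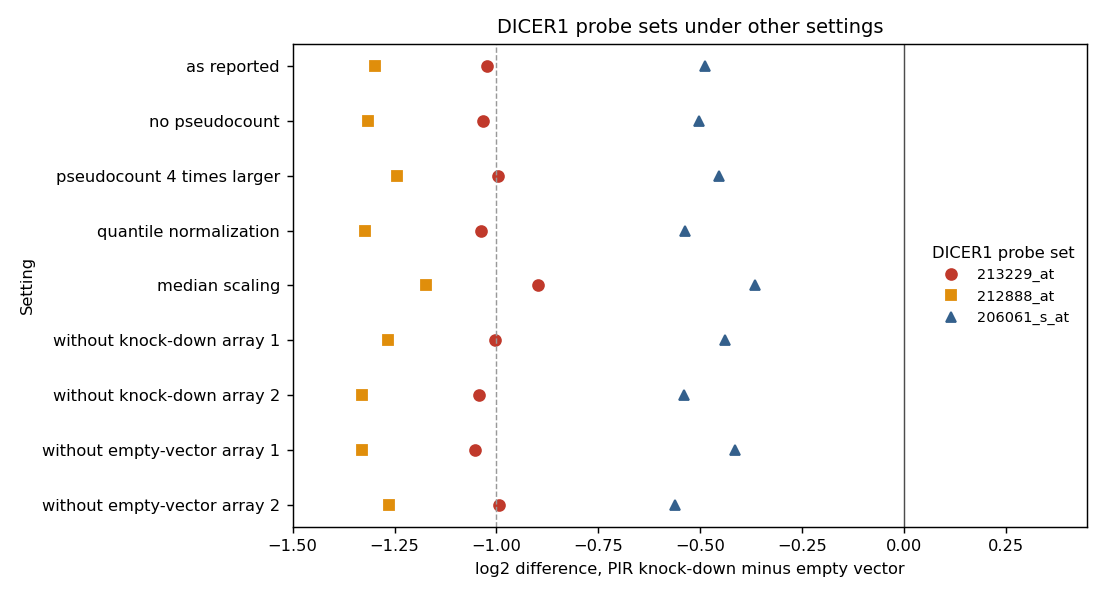
Log2 difference, knock-down minus empty vector, of the 3 measured DICER1 probe sets (markers) as reported and under each other setting that changes the values; the dashed line is the 2-fold limit. Probe set 212888_at stays below -1 under all of the settings shown, 213229_at runs from -1.05 to -0.90, and 206061_s_at from -0.56 to -0.37.

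No probe set of the partners of DICER1 was called. TARBP2, a double-stranded RNA-binding protein that positions the hairpin in the enzyme, had signals of 844.6 and 754.2 on the knock-down arrays, against 768.4 and 628.9 on the empty-vector arrays, and the pools overlapped. Its log2 difference was 0.19, and its second probe set, 239389_at, was below the limit. PRKRA, which encodes the related protein PACT, an activator of the kinase PKR, had signals of 4166 and 3842 on the knock-down arrays, against 3716 and 3998 on the empty-vector arrays, for probe set 209139_s_at. These overlapped, with a log2 difference of 0.05. Its other probe set, 237107_at, was dim and went the other way, with 137.8 and 136.2 on the knock-down arrays, against 236.8 and 225.5 on the empty-vector arrays. That difference of -0.68, or 1.61-fold, was the lowest of any measured probe set outside DICER1 and was not called. The 2 PRKRA probe sets therefore disagreed by more than the array SDs, and the brighter of them did not separate the pools.

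In the Microprocessor, DROSHA, the RNase that makes the first cut, had signals of 2327 and 2314 on the knock-down arrays, against 2050.4 and 1908 on the empty-vector arrays. Both knock-down arrays were higher, but the log2 difference of 0.23 was small, and 38.5% of all measured probe sets were likewise higher without overlap. DGCR8, the protein that recognises the primary hairpin, is represented by 4 probe sets annotated jointly to MIR1306 and DGCR8, which cannot be assigned to 1 gene from that annotation. Of the 3 that were measured, 91617_at had 285.5 and 386.9 on the knock-down arrays, against 501.3 and 432.3 on the empty-vector arrays, a log2 difference of -0.46. Probe set 218650_at had 345.6 and 314.3 on the knock-down arrays, against 387.9 and 396.2 on the empty-vector arrays, a difference of -0.24. Probe set 64474_g_at had 388.6 and 396.4 on the knock-down arrays, against 322.2 and 248 on the empty-vector arrays, a difference of 0.45 in the other direction. Each of these 3 separated the pools, none reached the 2-fold limit, and their signs did not match, so no direction can be given.

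XPO5, the export carrier, had 3 measured probe sets with small differences of both signs. Probe set 223056_s_at had 5168.5 and 4924 on the knock-down arrays, against 4364 and 5190.4 on the empty-vector arrays, and the pools overlapped at a log2 difference of 0.08. Probe set 223057_s_at, at -0.12, overlapped as well. Only 223055_s_at separated the pools, with 3645 and 3320.4 on the knock-down arrays, against 4120 and 4174 on the empty-vector arrays, and a difference of -0.25. None of the 3 was called.

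The Argonaute genes encode the proteins that hold the microRNA strand; in human cells AGO2 is the member best known for cutting a fully matched target, which is also how a hairpin against an mRNA works. AGO2 probe set 225827_at had signals of 2290 and 2101 on the knock-down arrays, against 2056 and 2099 on the empty-vector arrays. The lower knock-down array and the higher empty-vector array were almost level, and the log2 difference was 0.08. Another 3 probe sets were annotated jointly to CASC7 and AGO2, and RefSeq now lists CASC7 as a synonym of AGO2. The brightest of these, 225569_at, had 1393 and 1517 on the knock-down arrays, against 1750.5 and 1886 on the empty-vector arrays, a difference of -0.32, and 213310_at had a difference of -0.06. The probe sets of AGO2 thus had small differences of both signs.

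AGO1, AGO3 and AGO4 lie next to each other on chromosome 1 and also load microRNAs. AGO1 probe set 218287_s_at had 531.1 and 621.9 on the knock-down arrays, against 792.1 and 652.6 on the empty-vector arrays, a log2 difference of -0.31 with a gap between the pools smaller than the spread within either. The other measured AGO1 probe sets overlapped between the pools, at 0.21 for 228120_at and 0.02 for 222576_s_at. AGO3 had 4 measured probe sets, from 0.25 for 219426_at, the brightest, to -0.40 for 235782_at. The value for 219426_at came from 396.9 and 424.7 on the knock-down arrays, against 312.4 and 374.1 on the empty-vector arrays. The pools did not overlap for these, but did for the remaining 2, of which 228932_at spanned 123.5 to 271.3 within the knock-down pool alone. AGO4 gave 893.7 and 1109 on the knock-down arrays, against 1022 and 933.5 on the empty-vector arrays, for its brightest probe set, 227930_at, which overlapped at 0.03. Its dim probe set 219190_s_at had 178.3 and 189.7 on the knock-down arrays, against 105.8 and 117.9 on the empty-vector arrays, below the limit there, and a difference of 0.64 that was the highest of any member. No Argonaute gene differed in 1 direction on all of its measured probe sets where it had more than 1, except that both of AGO4 were above 0.

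Over the 20 measured probe sets, 10 differences were positive and 10 negative, with a median of -0.034, against 0.031 over all measured probe sets. The pools did not overlap for 7 probe sets with lower and 4 with higher knock-down signals, which is 35% and 20% of the 20. The same shares over all measured probe sets were 32.3% and 38.5%, so the share with lower signals was near that of the whole array. On the brightest probe set of each gene, the 9 genes had a median difference of 0.08, against 0.05 over the 10288 measured genes, and without DICER1 the remaining 8 ran from -0.31 to 0.25. The pools did not overlap for 2 of the 9 genes with lower signals, DICER1 and AGO1, and for 3 with higher signals, against 31.2% and 40.9% of all measured genes.

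**Figure D3:**
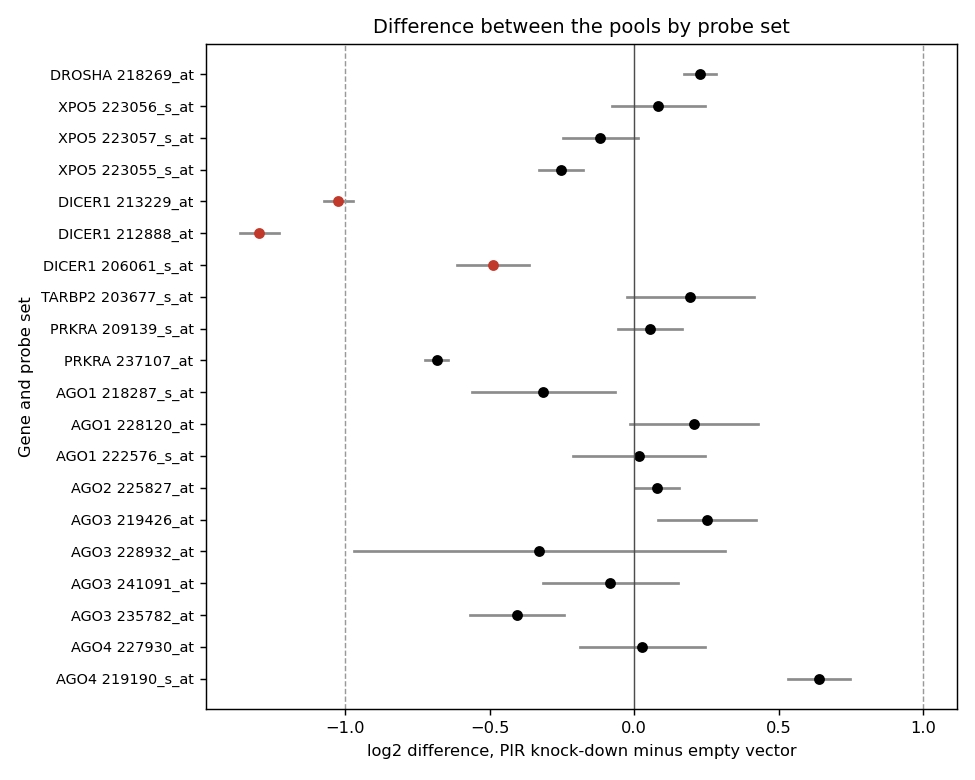
Log2 difference, knock-down minus empty vector, of each measured probe set (point) with the range of its 4 array-by-array differences (bar); dashed lines mark 2-fold. Only DICER1 213229_at and 212888_at lie beyond the lower line, at -1.02 and -1.30, and the other genes lie between -0.68 and 0.64.

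The lists that follow place these genes among the factors they work with, and no list is tested here. Each list was chosen with earlier results of these data known, so its shares only describe the genes in it. Cofactors of the Microprocessor and of primary transcripts were mostly negative on their brightest probe sets: 13 of 14 measured genes, against 44.8% of all measured genes, with a median of -0.22. With each array scaled to a common median 9 of 14 were negative, against 31% of all measured genes, and the median was -0.09. Only DDX5, an RNA helicase of the Microprocessor, was called, while 1.1% of all measured genes were called lower. DDX5 probe set 225886_at had 531.3 and 480.2 on the knock-down arrays, against 1630 and 1500.1 on the empty-vector arrays, a log2 difference of -1.60. Another probe set, annotated jointly to DDX5 and to MIR5047 and MIR3064, had 17866 and 17358 on the knock-down arrays, against 17019 and 18046 on the empty-vector arrays, a difference of 0.007, so DDX5 itself has no agreed direction. The next lowest were NCBP2, a cap-binding subunit, at -0.49 and SAFB2, a scaffold attachment factor, at -0.31, and neither was called. Their second probe sets were also negative, at -0.18 and -0.69 in the same order.

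The list of export, tailing and turnover factors had a median of 0.17 over 9 measured genes, and none was called. Its largest differences were 0.37 for ADARB1, an RNA editing enzyme, 0.32 for TENT2, a poly(A) polymerase, and 0.30 for DIS3L2, an exonuclease that degrades tailed RNA. Other measured probe sets of the same genes did not all share the sign, with 0.16 for ADARB1, -0.084 for TENT2 and -0.19 to 0.39 for the other three of DIS3L2. Factors that load or accompany Argonaute had a median of 0.01 over 20 measured genes with none called. GEMIN4, which is found with Argonaute complexes, had -0.50, the HSP90 co-chaperone STIP1 -0.44 and the LIM protein LIMD1 -0.37. A second GEMIN4 probe set, 217099_s_at, was at -0.024 and those of LIMD1 at -0.0098 and 0.024, while the second of STIP1 was at -0.25.

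The GW182 proteins and silencing effectors, which turn Argonaute binding into deadenylation and decapping, had a median of -0.09. Of 30 measured genes, 16 were negative, against 44.8% of all measured genes. With median scaling the median was 0.04 and 12 were negative, against 31% of all measured genes. DCP2, the decapping enzyme, was the only 1 called, at -2.21 on its brightest probe set, while 1.1% of all measured genes were called lower. The other measured probe sets of DCP2, however, were at -0.80 and 0.57. CNOT1, the scaffold of the deadenylase complex, had -0.56, with -0.50 and -0.018 on its other measured probe sets. CNOT6, a deadenylase subunit, had -0.55 on its brightest probe set and -1.06 on its other one. That second CNOT6 probe set was called lower, with 681.6 and 623.6 on the knock-down arrays, against 1431 and 1323 on the empty-vector arrays. The GW182 genes, which bind Argonaute directly and are named here after their values were seen, differed in sign. All 3 measured probe sets of TNRC6A were positive, from 0.33 to 0.52, and all 5 of TNRC6B were negative, from -0.53 to -0.18, while TNRC6C had 0.37. None of these 9 was called.

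The PIWI clade and its partners, which work with germline small RNAs, were mostly dim, and 3 of 9 genes on the array were measured. TDRD9, a helicase of that pathway, was called higher, with 443.1 and 516.6 on the knock-down arrays, against 176.7 and 211.3 on the empty-vector arrays, a 2.35-fold difference. PIWIL4 had -0.019 and HENMT1, a small RNA methyltransferase, had 0.14. At the level of genes, 2.44% of measured genes were called higher.

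**Figure D4:**
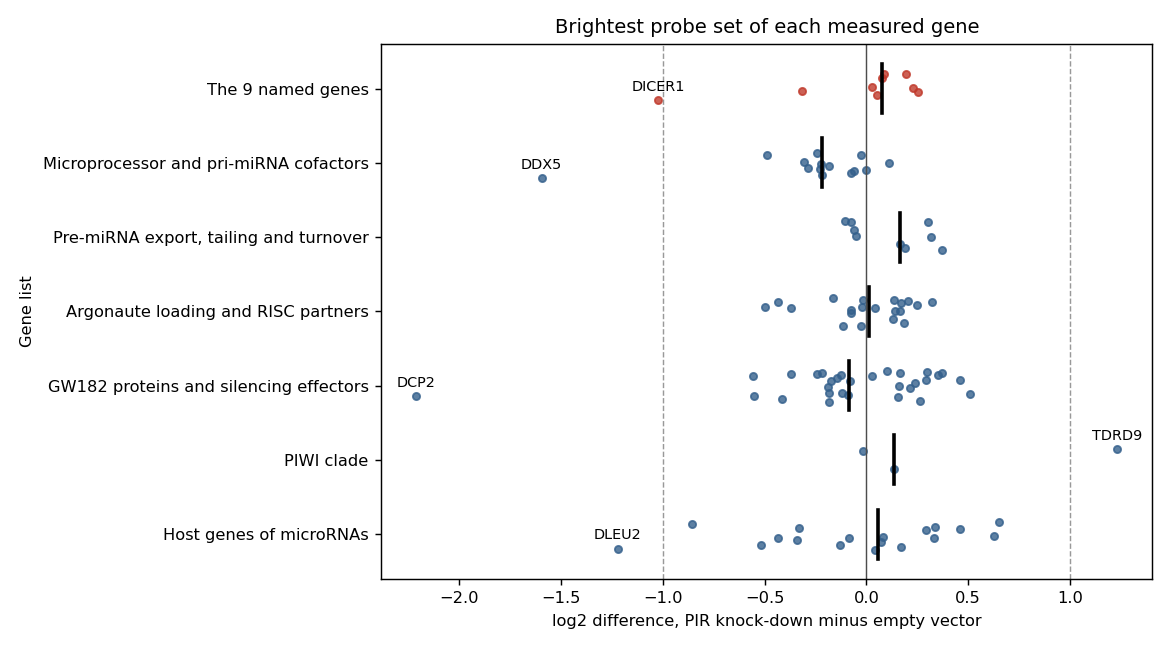
Log2 difference, knock-down minus empty vector, of the brightest probe set of each measured gene in the 9 named genes and in 6 lists; black bars are medians, dashed lines mark 2-fold, and points are spread vertically only to be seen. DICER1, DDX5, DCP2 and DLEU2 lie beyond the lower line and TDRD9 beyond the upper line, and the Microprocessor cofactors have the lowest median, -0.22.

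Mature microRNAs were not measured on these arrays, but some genes that contain them were. Over 18 measured host genes the median was 0.06, against 0.05 over all measured genes. Only DLEU2 was called, while 1.1% of all measured genes were called lower and 2.44% higher. DLEU2, a long non-coding transcript on chromosome 13 that contains MIR15A and MIR16-1, had 1074.5 and 1032 on the knock-down arrays, against 2441 and 2523 on the empty-vector arrays. This was 2.33-fold lower, and all 5 of its measured probe sets were negative, from -1.68 to -0.72, with 2 of them called. The identifier of the brightest, 216870_x_at, marks probes that may match related transcripts. SMC4, a condensin subunit whose gene contains MIR15B and MIR16-2, had a difference of 0.04 on its brightest probe set and is named, after its values were seen, because its microRNAs are of the same family. Its other measured probe sets were at 0.026 and, for 201663_s_at, -0.16, with 5837 and 5153 on the knock-down arrays, against 6279 and 5957 on the empty-vector arrays, without overlap. The next largest differences in the list were -0.86 for AOPEP, an aminopeptidase gene that contains MIR23B, MIR27B and MIR24-1, and 0.65 for SREBF1, a regulator of lipid synthesis that contains MIR33B.

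The PANK genes, which encode pantothenate kinases of coenzyme A synthesis, are of interest beside DICER1 because miR-103 and miR-107, which lie inside them, are known to target the DICER1 mRNA in human cells. They are named here after their values were seen. PANK3, which contains MIR103A1, had 3242 and 2793 on the knock-down arrays, against 2471 and 2313 on the empty-vector arrays, a log2 difference of 0.33, and its second measured probe set was at -0.058, or above 0 with median scaling. PANK1, which contains MIR107, had 0.17, with overlapping pools. PANK2, which contains MIR103A2, was negative on its 4 measured probe sets, from -1.28 to -0.34, and 1 of them was called lower. The 3 host genes therefore had no common direction, and their relation to the level of DICER1 was not tested.

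The microRNAs of MIR15A and MIR16-1 in DLEU2 and of MIR15B in SMC4 share a seed, as do those of MIR107 in PANK1 and MIR103A1 in PANK3. Their mature RefSeq sequences (GRCh38.p14) are printed to show this, with the seed, bases 2 to 8, in capitals.
hsa-miR-15a-5p: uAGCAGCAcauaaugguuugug
hsa-miR-16-5p: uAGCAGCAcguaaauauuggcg
hsa-miR-15b-5p: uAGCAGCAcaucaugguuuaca
hsa-miR-103a-3p: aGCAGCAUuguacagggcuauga
hsa-miR-107: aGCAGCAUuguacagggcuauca
They lie at chr13:50049167-50049188 and chr13:50049027-50049048 on the minus strand for miR-15a-5p and miR-16-5p, and at chr3:160404607-160404628 on the plus strand for miR-15b-5p. miR-103a-3p lies at chr5:168560904-168560926 and miR-107 at chr10:89592756-89592778, both on the minus strand. These are the positions in MIR15A, MIR16-1, MIR15B, MIR103A1 and MIR107. Positions in MIR16-2 of SMC4 and MIR103A2 of PANK2 are not printed. The AGCAGCA seed is held by 7 mature microRNAs of the RefSeq table and the GCAGCAU seed by 2. The first 3 microRNAs thus differ only outside the seed, and the measured probe sets of their hosts ran from -1.68 to -0.72 for DLEU2 and from -0.16 to 0.04 for SMC4.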

How the data were processed

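The authors deposited signal intensities, 1 for every probe set on every array, made with GCOS, per the submitters' processing notes; no version or setting is stated in the sources used here. The intensity values have the same mean on each of the 4 arrays, 500.07, after trimming 2% at each end. Of 54675 probe sets, 62 controls were left out. Gene names come from the platform annotation, and the gene identifiers of 41037 of 41091 probe sets with 1 symbol matched the reference gene table (GRCh38.p14), which also gave the microRNA positions. Detection calls were not used here, and the number of arrays limits the precision.

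The pseudocount, 18, is the 25th percentile of signal averaged over the 4 arrays. Each gene was represented by its brightest probe set, by mean log2 value. No test of the condition was made, since each pool is 1 sample. Named from each list were the called genes and the 3 largest absolute differences; others are marked. The members and lists were chosen with earlier results of these data known. The calls were tested on simulated data with known differences put into bright probe sets only. The simulated noise was the spread between arrays of a pool, so dim probe sets and variation between cultures were not covered. Alternatives changed the pseudocount, brightness limit, scaling, fold limit, margin, probe set choice and arrays, and, chosen after seeing the data, counted joint probe sets as members and left out DICER1. Python 3.11.15, pandas 2.3.3 and numpy 2.4.6 were used.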

Additional observations from a re-analysis of the deposited data

How the results depend on the processing

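No paired analysis was possible because the results come from no test: each condition is 1 pool, and the replica numbers count hybridisations of it. Of 108 differences of the member probe sets recomputed with all arrays kept, 19 moved by more than the SD between arrays; leaving out 1 of 2 arrays cannot move a difference by more than that SD. DICER1 212888_at was called lower under all 8 settings that change it. The number of member probe sets called lower was 1 with a pseudocount 4 times larger and 1 with median scaling, and 1 to 2 with single arrays left out. At 1.5-fold, 1 member was called higher. Probe sets without overlap and higher numbered 2 under the 75th percentile limit, 7 with median scaling and 6 to 8 with single arrays left out. Those lower numbered 5 under the 75th percentile limit and 5 with median scaling. Their number was 8 to 10 with single arrays left out and 11 with joint probe sets counted. With an array left out fewer pairs of arrays must agree, so the counts cannot fall. Shares over all probe sets were not computed under these settings, so the changes cannot be called particular to the members. Over all probe sets with 1 symbol, 454 were called higher and 270 lower (62.7% higher). These counts were 285 and 166 with the larger pseudocount, 911 and 898 without a brightness limit, 233 and 165 under the 75th percentile limit, and 1271 and 880 at 1.5-fold; with single arrays left out they were 514 to 578 and 317 to 397. Median scaling gave 623 and 181 (77.5% higher) and moved the median of all genes by 0.12, to 0.17. Under it the list medians were -0.093 for cofactors, 0.29 for export and turnover, 0.14 for loading, 0.038 for effectors and 0.18 for host genes, so the effectors changed sign. With all probe sets of a gene averaged, the medians were -0.33 for cofactors, -0.053 for export and turnover and -0.053 for host genes, the last 2 with changed sign, as was the loading median at -0.021 (-0.0096 with quantile normalization), and 0 effectors and 0 host genes were called. The export and turnover median was 0.056 under the 75th percentile limit and 0.067 to 0.19 with single arrays left out, lowest without empty-vector array 1. Other medians with single arrays left out were 0.049 to 0.12 for members (without knock-down array 1 and 2), -0.088 to -0.024 for effectors and 0.011 to 0.049 for loading (both highest without knock-down array 1), and 0.012 to 0.067 for host genes (lowest without empty-vector array 2). Host genes called numbered 2 at 1.5-fold and 1 to 2 with single arrays left out. The PIWI median was -0.019 without a brightness limit and -0.017 to 0.29 with single arrays left out (without empty-vector array 2 and 1). The member median was -0.046 with probe sets averaged. Causes were not tested.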
